A study of Mus musculus with 9 samples.

Results

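Radial glia and progenitor genes were followed in single cells sorted from the ventral midbrain of developing mice. The genes were Fabp7, Slc1a3, Sparcl1, Ptprz1, Bcan, Ttyh1, Qk, Sox2 and Sox9, which are 9 of the 32695 gene entries in the table of total counts, and they were selected by symbol. All animals of all groups carried VGAT-Cre, Ai14 and Pitx3-GFP. VGAT-Cre turns on tdTomato from the Ai14 reporter in cells that have made the vesicular GABA transporter, and Pitx3-GFP marks chiefly the dopamine system. Cells were sorted into 384-well plates as tdTomato+ (VGAT) or as tdTomato+GFP+ (VGAT+Pitx3) at E16 or P0. There were 4 VGAT E16 plates, 3 VGAT P0 plates, 1 VGAT+Pitx3 E16 plate and 1 VGAT+Pitx3 P0 plate. The study gives the brains and litters of each stage but not how they were spread over plates, so plates may share animals. Each plate counted as 1 sample, so p-values measure the spread between plates only. Both sorts chose fluorescent cells, and Cre marks a cell for life, so numbers of glial cells on these plates do not measure their share of the tissue. The first plate label in the well names matches the sample titles and was used for stage. The second label gives another stage on 4 of the 7 VGAT plates (E16 plates 3 and 4, P0 plates 1 and 3). Every comparison of stages below rests on the first label. With the second label none of the 9 genes passed the test between stages, where 0.00733% of all genes passed (4.58% with the first label).

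Radial glia are the stem cells of the embryonic neural tube. Their bodies line the ventricle and their long fibres guide migrating neurons, and late in development many of them turn into astrocytes. In the ventral midbrain, radial glia of the floor plate give rise to dopamine neurons. Most of the 9 genes are shared by radial glia, astrocytes and oligodendrocyte precursors, and some of them are also transcribed in neurons. The study itself described a small progenitor cluster in these same cells, so finding such genes together here is not independent evidence of that cluster.

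Positions are given on GRCm38. Fabp7 (chr10:57784881-57788450, plus strand) and Slc1a3 (chr15:8634124-8710764, minus strand) encode the brain lipid binding protein and the glutamate transporter GLAST. Sparcl1 (chr5:104079111-104113733, minus strand) and Bcan (chr3:87987531-88000230, minus strand) encode the matrix proteins hevin and brevican, and Ptprz1 (chr6:22875502-23052916, plus strand) encodes a receptor phosphatase that binds such matrix. Ttyh1 (chr7:4119408-4136708, plus strand) encodes a membrane protein of the tweety family, and Qk (chr17:10202601-10319854, minus strand) the RNA binding protein quaking. Sox2 (chr3:34650405-34652461, plus strand) and Sox9 (chr11:112782224-112787760, plus strand) encode transcription factors of neural stem cells. Sox2 lies within the noncoding gene Sox2ot on the same strand. Sox2ot had 7187 counts against 1604 for Sox2, and how reads in their overlap were split is uncertain. Slc1a3 overlaps Gm37310 on its strand, which had 4 counts against 274 for Slc1a3.

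Promoters (250 bases before to 50 after the gene's start, RefSeq, GRCm38.p6) were matched for 7 of the 9 genes, and those of Sparcl1 and Sox9 were not analysed here. Windows are set on RefSeq's starts, which can differ from the gene positions above, and the Sox2 window ends upstream of the start given there. The 3 printed here belong to the pair of genes that were most concentrated in a few wells, Fabp7 and Slc1a3, and to the gene that differed most between the sorts, Sox2. They lie at chr10:57784673-57784972 (plus strand), chr15:8710758-8711057 (minus strand) and chr3:34649745-34650044 (plus strand), and capitals mark matches to ACAAAG or ACAATG (letters bound by SOX factors) or TGGGAA (letters bound by RBPJ, the factor of the Notch pathway) on either strand, so that TTCCCA is a TGGGAA on the minus strand.
Fabp7: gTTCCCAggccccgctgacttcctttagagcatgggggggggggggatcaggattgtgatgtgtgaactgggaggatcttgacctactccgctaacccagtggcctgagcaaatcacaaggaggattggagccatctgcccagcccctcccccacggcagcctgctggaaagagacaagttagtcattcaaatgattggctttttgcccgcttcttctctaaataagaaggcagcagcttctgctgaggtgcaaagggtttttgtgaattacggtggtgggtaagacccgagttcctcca
Slc1a3: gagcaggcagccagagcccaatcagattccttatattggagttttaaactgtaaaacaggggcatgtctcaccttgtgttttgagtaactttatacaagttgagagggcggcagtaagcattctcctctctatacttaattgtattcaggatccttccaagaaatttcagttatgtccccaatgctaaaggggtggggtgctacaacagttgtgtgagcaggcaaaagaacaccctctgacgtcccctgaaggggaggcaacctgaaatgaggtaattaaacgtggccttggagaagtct
Sox2: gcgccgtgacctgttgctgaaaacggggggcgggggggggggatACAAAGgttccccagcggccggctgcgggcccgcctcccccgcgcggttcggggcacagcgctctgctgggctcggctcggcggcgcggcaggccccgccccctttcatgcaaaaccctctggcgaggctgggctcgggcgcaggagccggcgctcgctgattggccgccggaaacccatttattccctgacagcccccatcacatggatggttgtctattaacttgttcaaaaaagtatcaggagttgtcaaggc
In Fabp7 the match was to TGGGAA, which 25.6% of 32851 promoters of this length hold. In Sox2 it was to ACAAAG, which 18.7% hold. Slc1a3 and the other 4 promoters (Ptprz1, Bcan, Ttyh1 and Qk) had no match to these 3 motifs, and none of the 7 matched ACAATG, which 12.6% hold. A match to such short letters is a description of the window and not a site of binding.

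Of 3455 wells, 2034 had at least 2000 genes, at most 50000 counts and under 15% mitochondrial counts and were kept, 44 to 304 per plate. Kept wells of a plate summed to between 1435494 and 5408180 counts, and the median well held between 7039 counts (VGAT P0 plate 2) and 33235.5 counts (VGAT P0 plate 1). Levels are given as CPM, each gene's counts scaled to the same total for every plate, from kept wells without mitochondrial and spike-in counts. A gene with no count on a plate could have a level of up to 0.555 to 2.09 CPM, the worth of 3 counts. CPM of 3' counts needs no gene length, but no level is compared between genes here. The sorts matched their labels in part: the dopamine marker list summed to 115 to 171 CPM on the VGAT plates and to 3716 and 2846 CPM on the VGAT+Pitx3 plates. The list of 3 GABA genes summed to 1575 to 2087 CPM on the VGAT plates and to 1126 and 1277 CPM on the VGAT+Pitx3 plates. Of these genes, Gad1, a GABA synthesis enzyme, was lower in VGAT+Pitx3 cells (log2 fold change -6.37), Gad2, a second such enzyme, was higher (0.83), and the transporter Slc32a1 did not pass the test.

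Fabp7, the lipid binding protein of radial glia, was low on 6 of the 7 VGAT plates. The VGAT E16 plates 1 to 4 had 2.75, 6.41, 3.70 and 7.26 CPM, the VGAT P0 plates 7.66, 246 and 4.49 CPM, and the VGAT+Pitx3 plates 119 CPM at E16 and 78.8 CPM at P0. VGAT P0 plate 2 thus stood apart from the other VGAT plates, whose ranges overlapped between stages. Of the 1299 Fabp7 counts, 80.9% lay in 20 wells that held 8 or more of the 9 genes, and without those wells VGAT P0 plate 2 had 34.0 CPM and the VGAT+Pitx3 plates 9.96 and 13.2 CPM. Slc1a3, which clears glutamate from the extracellular space, was likewise highest on VGAT P0 plate 2 and next on the VGAT+Pitx3 plates, with 0.25, 3.58, 0.37 and 1.18 CPM on the VGAT E16 plates, 0.70, 51.8 and 2.09 CPM on the VGAT P0 plates, and 17.6 and 27.4 CPM on the VGAT+Pitx3 plates. Only 274 counts of it were found, 68.2% of them in the same 20 wells.

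Among the matrix genes, Sparcl1, an astrocyte-secreted protein of excitatory synapses, was found in 26.8% of kept cells. It had 60.4, 39.6, 51.0 and 58.3 CPM on the VGAT E16 plates, 80.8, 238 and 98.7 CPM on the VGAT P0 plates, and 35.1 and 97.6 CPM on the VGAT+Pitx3 plates. Every VGAT P0 plate was above every VGAT E16 plate. Bcan, a proteoglycan of the perineuronal matrix, was sparse, at 1.48 to 3.96 CPM on the VGAT E16 plates, 6.97, 44.5 and 4.19 CPM on the VGAT P0 plates, and 7.38 and 18.0 CPM on the VGAT+Pitx3 plates. Its stages did not overlap either, but 51.9% of its 237 counts lay in the 20 wells. Ptprz1, the receptor phosphatase, was the gene found in the most cells (69.7%). Its levels were 142, 141, 188 and 174 CPM on the VGAT E16 plates, 160.2, 277 and 115 CPM on the VGAT P0 plates, and 332 and 327 CPM on the VGAT+Pitx3 plates. Both VGAT+Pitx3 plates were thus above every VGAT plate, and only 9.24% of Ptprz1 counts lay in the 20 wells.

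Ttyh1, found in 45.8% of cells, had 49.7, 53.7, 43.6 and 40.8 CPM on the VGAT E16 plates, 60.6, 137 and 65.5 CPM on the VGAT P0 plates, and 64.9 and 92.9 CPM on the VGAT+Pitx3 plates. Its VGAT P0 plates lay above the E16 plates, by a small margin on plate 1. Qk, which controls splicing in glia, had 118, 134, 152 and 163 CPM on the VGAT E16 plates, 115, 141 and 92.4 CPM on the VGAT P0 plates, and 78.8 and 66.3 CPM on the VGAT+Pitx3 plates. Its stages overlapped, and both VGAT+Pitx3 plates lay below every VGAT plate.

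Of the transcription factors, Sox2, which keeps neural stem cells undifferentiated and is also made in some neurons, had 58.9, 74.1, 46.97 and 50.8 CPM on the VGAT E16 plates and 91.3, 67.9 and 46.9 CPM on the VGAT P0 plates. It was nearly absent from the VGAT+Pitx3 sort, at 6.29 CPM (E16) and 9.84 CPM (P0). Without the 20 wells, 3 counts (0.66 CPM) were left on the VGAT+Pitx3 E16 plate and 9 counts (3.96 CPM) on the P0 plate. Sox9, which specifies glial fate, had 6.49, 9.24, 5.36 and 9.03 CPM on the VGAT E16 plates, 9.75, 37.9 and 11.4 CPM on the VGAT P0 plates, and 11.7 and 11.1 CPM on the VGAT+Pitx3 plates. Its highest level was again on VGAT P0 plate 2, and its other VGAT plates all lay between 5.36 and 11.4 CPM.

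**Figure D1:**
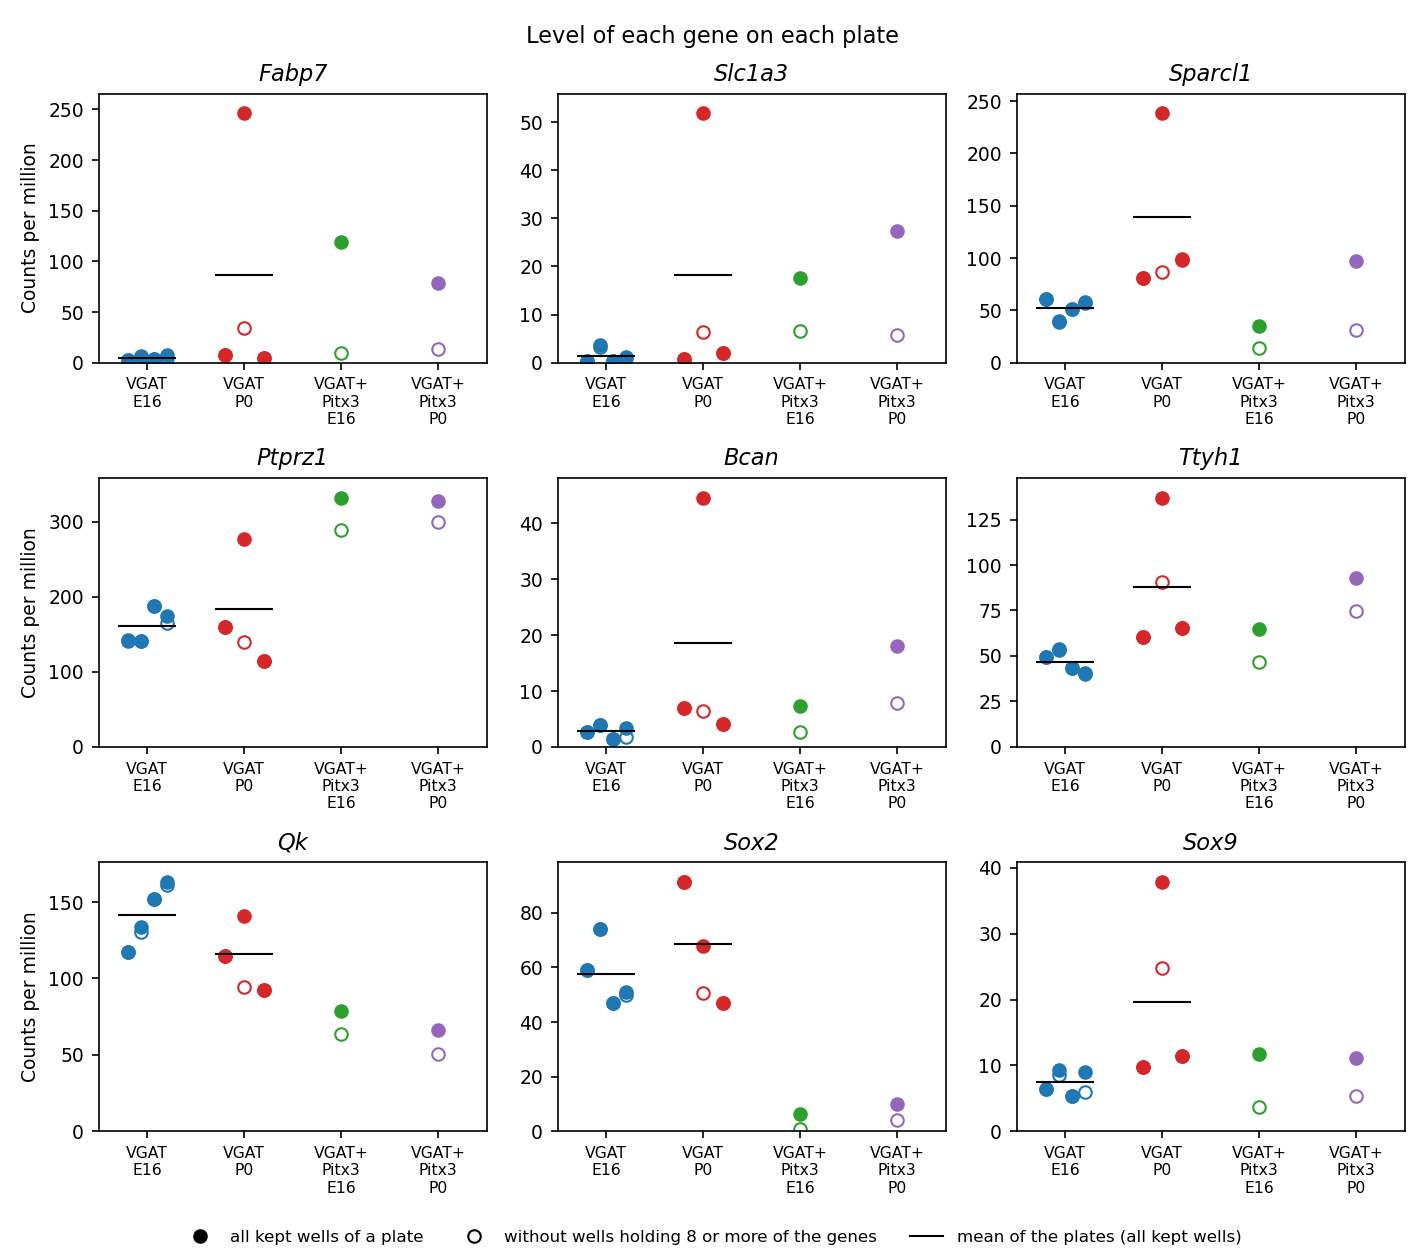
Level of each gene (CPM, linear axis from 0) on each of the 9 plates, by sort and stage. Filled points use all kept wells, open points leave out the 20 wells with 8 or more of the genes, and lines are group means; Fabp7 on VGAT P0 plate 2 falls from 246 to 34.0 CPM without those wells, and Ptprz1 on the VGAT+Pitx3 plates from 332 and 327 to 288 and 299 CPM.

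The question of the first comparison was whether these genes differ between E16 and P0 in the VGAT sort. Fabp7, Sparcl1 and Bcan were higher at P0 than at E16, and no gene was lower. None of these 3 calls held without VGAT P0 plate 2, E16 plate 3 or E16 plate 4. The log2 fold change was 4.03 (SE 0.99, adjusted p = 0.0402) for Fabp7, with means of 5.03 ± 2.15 CPM (SD, n = 4) at E16 and 86.1 ± 139 CPM (SD, n = 3) at P0. For Sparcl1 it was 1.39 (SE 0.30, adjusted p = 0.0270), from 52.3 ± 9.41 to 139 ± 86.2 CPM. For Bcan it was 2.62 (SE 0.67, adjusted p = 0.0454), from 2.88 ± 1.06 to 18.6 ± 22.5 CPM. So 3 of the 8 genes that could be tested passed edgeR's quasi-likelihood test with Benjamini-Hochberg adjustment, all 3 higher at P0. Of all 13639 genes tested, 4.58% passed, 2.84% higher and 1.74% lower at P0. Slc1a3 was too low to be tested. The median log2 fold change was 1.11 over the 8 genes and 0.02 over all genes tested. The genes that did not pass had log2 fold changes of 0.88 (Ttyh1, adjusted p = 0.0554), 1.34 (Sox9, adjusted p = 0.0788), 0.16 (Ptprz1), -0.32 (Qk) and 0.19 (Sox2). Alternatives that drop wells by counts of these genes were left aside. Among the rest, the call was made in 5 of 13 for Fabp7 and for Bcan, and in 8 of 14 for Sparcl1. DESeq2, a second method, gave Fabp7 no p-value and Bcan an adjusted p of 0.0527. It called Sparcl1, Ttyh1 and Sox9. Without VGAT P0 plate 2, none of the 9 genes passed (1.15% of all genes tested), and the log2 fold change was 0.11 for Fabp7, 0.75 for Sparcl1 (adjusted p = 0.0543) and 0.82 for Bcan. None passed without E16 plate 3 (0.688% of all genes) or without E16 plate 4 (0.976%) either, 1 passed without E16 plate 1 (1.91%), 2 without E16 plate 2 (6.24%) or P0 plate 3 (0.529%), and 6 without P0 plate 1 (5.34%). Without the 20 wells the log2 fold change was 1.72 for Fabp7, 0.76 for Sparcl1 and 1.14 for Bcan, values given with no test because counts of the same genes chose the wells.

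Other lists were counted in the same test between stages. Of the 14 other radial glia genes, 6 could be tested, none was higher at P0, and Id4, an inhibitor of differentiation factors, was lower (log2 fold change -0.47, adjusted p = 0.0480). Of the 12 astrocyte genes, 5 could be tested, with a median log2 fold change of 1.09 against 0.02 over all genes. Among these Aldoc, a glycolytic enzyme of astrocytes (1.41, adjusted p = 0.0189), and Clu, a secreted chaperone (1.09, adjusted p = 0.0138), were higher at P0, and the glutamate transporter Slc1a2 was lower (-0.76, adjusted p = 0.0219). None of the 3 testable proliferation genes and neither of the 2 testable oligodendrocyte precursor genes passed. Of the neuronal lists, Dcx, a microtubule protein of young neurons, was lower at P0 (-0.51, adjusted p = 0.0418), and the vesicular GABA transporter Slc32a1 was higher (0.61, adjusted p = 0.0368). The astrocyte list summed to 241 to 292 CPM on the VGAT E16 plates and to 234, 715 and 338 CPM on the P0 plates, with 43.0% of the 715 CPM in the 20 wells. It thus stood highest on the same plate as Fabp7, Bcan and Slc1a3. The list of 7 microglia genes was also highest there, at 68.5 CPM against 2.79 and 3.29 on the other P0 plates and 1.96 to 43.95 on the E16 plates, with 2.44% of it in the 20 wells. The part of either list in the differences was not tested. In sums over a plate, fewer cells of a type and less RNA per cell cannot be told apart.

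The second comparison asked how cells that also carry Pitx3-GFP differ from VGAT cells, with stage as a covariate. It uses the same VGAT plates as the comparison of stages, and the single VGAT+Pitx3 plate of each stage is assumed to vary like the VGAT plates. Here 3 of the 9 genes passed, 1 higher and 2 lower in VGAT+Pitx3 cells, while 8.93% of all 14624 genes tested passed, 4.73% higher and 4.2% lower. Sox2 was lower in VGAT+Pitx3 cells by a log2 fold change of -2.93 (SE 0.30, adjusted p = 9.0e-06), with 6.29 and 9.84 CPM against 62.4 ± 16.4 CPM (SD, n = 7). Qk was lower by -0.75 (SE 0.18, adjusted p = 0.0139), with 78.8 and 66.3 against 131 ± 24.2 CPM. With spliced counts only, its log2 fold change was -0.55 (SE 0.26, adjusted p = 0.266), which did not pass. Ptprz1 was higher by 1.02 (SE 0.23, adjusted p = 0.00936), with 332 and 327 against 171 ± 52.4 CPM. Leaving aside the alternatives that drop wells by counts of these genes, the call for Sox2 was made in 16 of 16, for Ptprz1 in 14 and for Qk in 12. The other 6 genes did not pass: Fabp7 had a log2 fold change of 2.86 (SE 1.04, adjusted p = 0.129), Slc1a3 2.27 (SE 0.92, adjusted p = 0.184), Bcan 0.74, Ttyh1 0.37, Sox9 0.11 and Sparcl1 -0.47.

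The 20 wells and VGAT P0 plate 2 moved these values as well. The wells held 59.9% and 68.3% of Sparcl1 counts on the VGAT+Pitx3 plates and 64.6% on VGAT P0 plate 2. On the other 6 VGAT plates they held 0 to 1.90%. Without the wells, the log2 fold change was -1.60 for Sparcl1 and -4.92 for Sox2, both further below 0, as was that of Qk. It fell from 2.86 to 0.65 for Fabp7, from 2.27 to 1.86 for Slc1a3, and to 0.38 for Bcan and 0.10 for Ttyh1. Sox9 had -1.05 and Ptprz1 1.06. These are descriptions with no test, since removing wells rich in a gene lowers it there. Without VGAT P0 plate 2, 7 of the 9 genes were called (9.62% of all genes tested), with log2 fold changes of 4.37 for Fabp7, 3.84 for Slc1a3, 1.61 for Bcan and 0.57 for Ttyh1 beside the 3 above. Without the VGAT+Pitx3 E16 plate, Sox2 alone was called (4.05% of all genes). Without the VGAT+Pitx3 P0 plate, Sox2 and Fabp7 were called (5.54% of all genes), and Ptprz1 had a log2 fold change of 1.085 (adjusted p = 0.0677) and Qk of -0.80 (adjusted p = 0.0874).

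Genes of the floor plate list also differed between the sorts. Of its 6 testable genes, 5 were higher in VGAT+Pitx3 cells, among them Lmx1a (7.75) and Foxa2 (1.84), transcription factors of floor plate and dopamine neurons, and the secreted signals Wnt5a (5.28) and Shh (2.95). All 7 dopamine genes were higher too, and Lmx1a and Foxa2 are known to stay on in dopamine neurons. Of the 12 testable other radial glia genes, the intermediate filament Vim was higher (0.89, adjusted p = 0.00332) and Id4 lower (-2.49, adjusted p = 6.9e-08). Of the 10 testable astrocyte genes, Slc1a2 was higher (1.12) and Aldoc lower (-2.25). Btg2 (1.99) was higher and Hes6 (-0.85) lower among 7 testable neurogenic genes, and Lhfpl3 (-0.54) and the neurofilament Nefl (-0.62) were the genes that passed among the oligodendrocyte precursor and pan-neuronal lists.

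**Figure D2:**
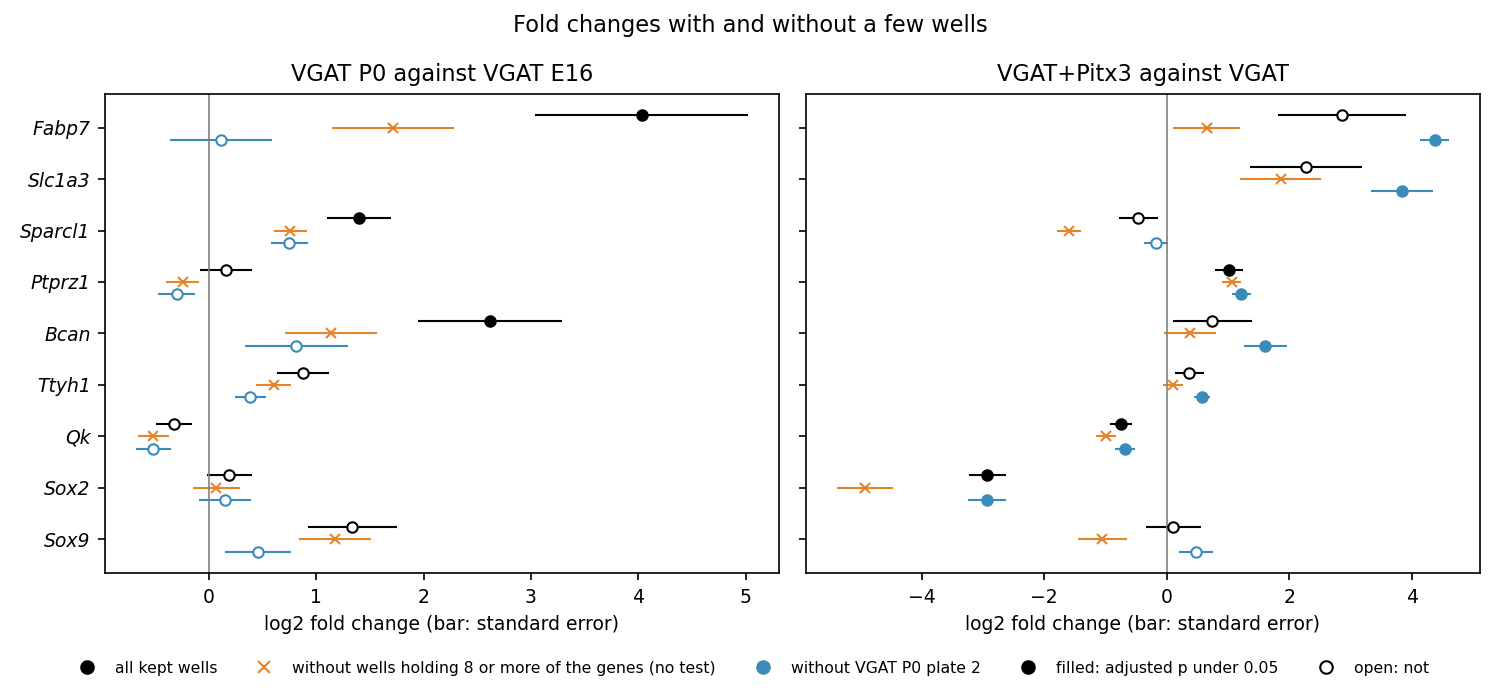
Log2 fold change with its standard error for each gene, P0 over E16 in the VGAT sort and VGAT+Pitx3 over VGAT. Circles are the fits on all plates (black) and without VGAT P0 plate 2 (blue), filled where the adjusted p is under 0.05, and crosses are the fit without the 20 wells, with no test; Sox2 stays far below 0 between the sorts, while Fabp7 moves from 4.03 to 0.11 between stages when that plate is left out.

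Whether the difference between stages itself differed between the sorts was tested with an interaction term. No gene of 15724 passed (0.0%), 997 had an unadjusted p under 0.05, and DESeq2 called 4 genes, none of the 9. Fabp7 was the only one of the 9 with an unadjusted p under 0.05 (0.0249, adjusted p = 0.772), at a log2 value of -4.60 (SE 1.82) for the change in VGAT+Pitx3 cells less that in VGAT cells. In simulated counts of this design, with 1 VGAT+Pitx3 plate per stage, only 22% of 4-fold differences were recovered for the interaction. The simulation gave every gene the same fixed spread, not estimated from these plates, and changed only genes with more counts. Recovery for genes that vary more between plates, such as Fabp7, was thus not measured.

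Of the 2034 cells, 914 (44.9%) had counts of 3 or more of the 9 genes. The share was 55.8%, 64.5%, 47.5% and 41.4% on the VGAT E16 plates (mean 52.3% ± 10.0, SD, n = 4) and 77.3%, 47.5% and 49.1% on the VGAT P0 plates (mean 58.0% ± 16.7, SD, n = 3). On the VGAT+Pitx3 plates it was 33.9% (95% exact binomial interval 28.6 to 39.5) at E16 and 24.4% (19.4 to 29.9) at P0, which covers counting error only. The highest share was thus on the deepest plate. After each cell was thinned to 4000 counts, which left out 78 shallower cells, the shares were 8.20%, 8.33%, 8.39% and 8.87% at VGAT E16, 9.30%, 21.6% and 6.51% at VGAT P0, and 4.35% and 10.8% at VGAT+Pitx3 E16 and P0. At equal depth the VGAT E16 plates were alike, VGAT P0 plate 2 stood highest, and the VGAT+Pitx3 P0 plate lay within the range of the VGAT P0 plates. At 8000 counts, which left out 487 cells, it was again below them, at 21.3% against 39.5%, 41.2% and 24.3%.

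Thinned to the same depth, Ptprz1, Qk and Sox2 kept the order of their levels between the sorts. Ptprz1 was found in 36.8% ± 4.81 (SD, n = 4) of VGAT E16 cells and 33.6% ± 6.38 (SD, n = 3) of VGAT P0 cells, against 55.2% and 57.0% of VGAT+Pitx3 cells. Qk was found in 36.2% ± 0.68 and 30.6% ± 4.06, against 16.7% and 16.9%. For Sox2 the shares were 12.1% ± 2.80 and 13.3% ± 4.40, against 1.34% and 3.21%. Fabp7 was found in 1.89% ± 0.84 and 7.27% ± 7.74 of VGAT cells at E16 and P0, against 5.02% and 6.43% of VGAT+Pitx3 cells. At E16 the VGAT+Pitx3 value was above every VGAT plate (1.09% to 3.07%), and at P0 it lay within their range (1.18% to 15.98%). Free RNA in the wells could give single counts, and its part in these shares was not tested.

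The number of genes per cell fell off from 2 and then rose again at the end. There were 128 cells with none of the 9 genes, 386 with 1, 606 with 2, 519 with 3, 270 with 4, 84 with 5, 18 with 6 and 3 with 7, but 5 with 8 and 15 with all 9. The median depth grew from 5827 counts in cells with none to 24261.5 counts in cells with 5, was 21912 at 6 and 37219 at 7 (3 cells), and dropped to 6254 counts at 8 and 7494 counts at 9. Cells at the threshold of 3 genes had a median of 17541 counts, and those with 2 genes just outside it had 14079.5.

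**Figure D3:**
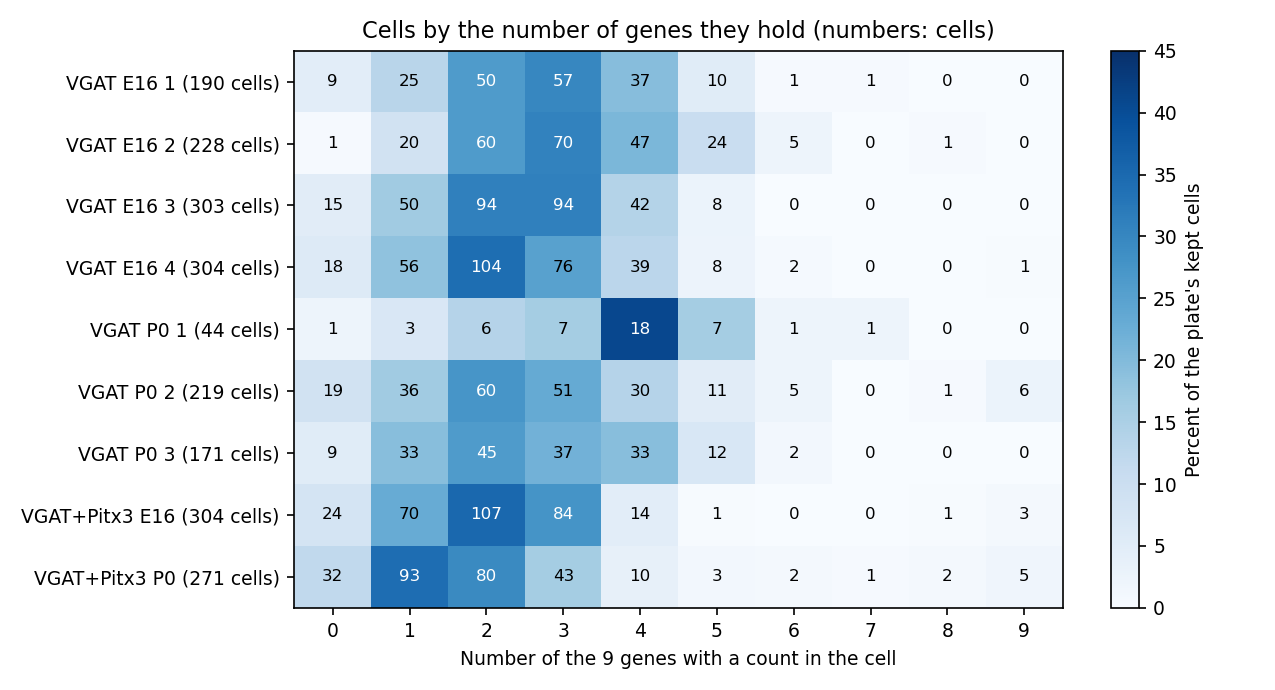
Number of cells on each plate (rows) by how many of the 9 genes had a count (columns, 0 to 9), printed as numbers, with colour for the percent of the plate's kept cells. Most cells have 1 to 4 of the genes, and 20 wells with 8 or 9 sit on 5 of the 9 plates.

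The cells with 3 or more genes were deeper than the others and held pan-neuronal RNA at a similar level. On every plate their median depth was higher, for example 26804.5 against 12490 counts on VGAT E16 plate 1 and 8436 against 5618 on VGAT P0 plate 2. Pan-neuronal genes had median log2 ratios of only -0.08 to 0.12 between them and the other cells of their plate. Of 9391 genes with enough counts, 68 (0.724%) were higher in them on every plate and 44 (0.469%) lower. Among these 68, the genes with the largest median log2 ratios were the noncoding RNA Sox1ot (0.75), Lama3, a laminin chain (0.74), Ankrd34b (0.61), Lifr, a cytokine receptor (0.52), the synaptic vesicle protein Sv2b (0.51), Syt17 (0.48), Vwc2l (0.43), Ptges2 (0.42), Xylt1 (0.38) and Dync1i1, a dynein chain (0.38). Sparser genes were not eligible, and their medians cover few plates. Over the plates with a ratio, 10 of the 14 other radial glia genes had a median above 0 and 4 below (such as Rfx4, 3.09 over 7 plates, and Hes5, -0.34 over 8), and all 11 astrocyte genes with a ratio had one above 0 (such as Aqp4, 2.81 over 4). The oligodendrocyte precursor and dopamine lists leaned the same way, each with 6 of 7 genes above 0, as did 5 of 8 floor plate genes. Others did not: microglia (0 of 6), neurogenic (3 of 8), proliferation (4 of 9), vascular (3 of 7) and GABA genes (1 of 3). Pan-neuronal (5 of 10) and ependymal genes (1 of 2) were evenly split. The share over all genes was not counted. Without the 20 wells, 6 of the 10 genes named above were still higher on every plate, Ptges2, Xylt1 and Lifr were higher on 8 and Sox1ot on 7, and the median of Lifr went from 0.52 to 0.33. Since the 9 genes themselves chose the cells, this is a description with no test.

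The 20 wells with 8 or more genes made up 0.983% of kept wells. They were chosen after the counts were seen and by the genes themselves, so what follows is a description. VGAT P0 plate 2 held 7 of them (3.20% of its cells), the VGAT+Pitx3 P0 plate 7 (2.58%), the VGAT+Pitx3 E16 plate 4 (1.32%), VGAT E16 plates 2 and 4 held 1 each, and the other 4 plates none. No well number was shared between plates. The well with the most counts of the 9 genes, on the VGAT+Pitx3 E16 plate, had 315 Fabp7, 119 Ptprz1, 38 Ttyh1, 36 Sparcl1, 33 Qk, 25 Slc1a3, 15 Bcan, 7 Sox2 and 5 Sox9 counts among its 23937.

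Genes outside the 9 that the choice of wells did not use showed what else these wells held. Among other radial glia genes, the filament Vim had counts in 17 of the 20 (25.4% of the other cells), the matrix protein Tnc in 17 (1.24%), the factor Rfx4 in 17 (2.58%), the Notch target Hes5 in 14 (1.94%) and Mfge8 in 16 (0.844%). Id4 had counts in 14, against 64.1% of the other cells. Among astrocyte genes, the lipoprotein Apoe had counts in 18 (13.5%), Aldh1l1 in 16 (1.24%), the water channel Aqp4 in 14 (0.844%) and the gap junction protein Gja1 in 13 (0.745%). Gfap, the classical filament of mature astrocytes, was counted in 1 well, with 3 counts. The medians of the summed counts were 33.5 in these wells against 4 in the other cells for the other radial glia list, and 29.5 against 3 for the astrocyte list.

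Division genes were sparse in these wells. Mki67 was counted in 1 of the 20 with 3 counts (0.248% of the other cells), Top2a in 2 with 1 count each (0.844%), and Cdk1 and Ube2c in none. The proliferation list had a median of 1 count per well against 0 in the other cells, or 122 against 53.6 CPM over all wells of each kind, so it was higher for the depth but rested on at most 6 counts in a well. Resting and dividing radial glia and young astrocytes cannot be told apart by the lists used. The ependymal list was at 0 in all 20 wells for all 5 genes, the microglia list for 4 of 7 (C1qa, C1qc, Trem2 and Tyrobp) and the vascular list for 5 of 8.

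Neuronal RNA was present too. The pan-neuronal list had a median of 45 counts in the 20 wells against 142 in the other cells, and, scaled to depth over all wells of each kind, 7933 against 10317 CPM. For the GABA list these were 5 against 22 counts and 1335 against 1740.1 CPM. The well of VGAT E16 plate 2 gave 209 of the 351 GABA counts, and without it the level was 628 CPM. Stmn2, a tubulin regulator of neurons, was counted in 19 of the 20. Gad1 was counted in 8 of the 9 wells from VGAT plates (98.6% of the other VGAT cells) and in 1 of the 11 from VGAT+Pitx3 plates (2.84%). Some wells held much more: the well of VGAT E16 plate 2 had 36940 counts with 140 of Gad1 and 115 of Stmn2, and a well of the VGAT+Pitx3 E16 plate had 41879 counts with 73 of Th and 91 of Slc6a3, which make and take up dopamine. Of the oligodendrocyte lineage genes, the factors Olig1 and Olig2 had counts in 15 and 13 of the 20 wells (1.59% and 1.14% of the other cells), up to 38 and 16 counts in a well of the VGAT+Pitx3 E16 plate. Pdgfra, a growth factor receptor of oligodendrocyte precursors, and Sox10 were counted in 1 well alone, that of VGAT E16 plate 4, with 29 and 3 counts beside 14 of Cspg4, 63 of Lhfpl3 and none of Apoe or Aqp4. More than 1 cell in a well was not tested for, as no doublet caller was run.

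**Figure D4:**
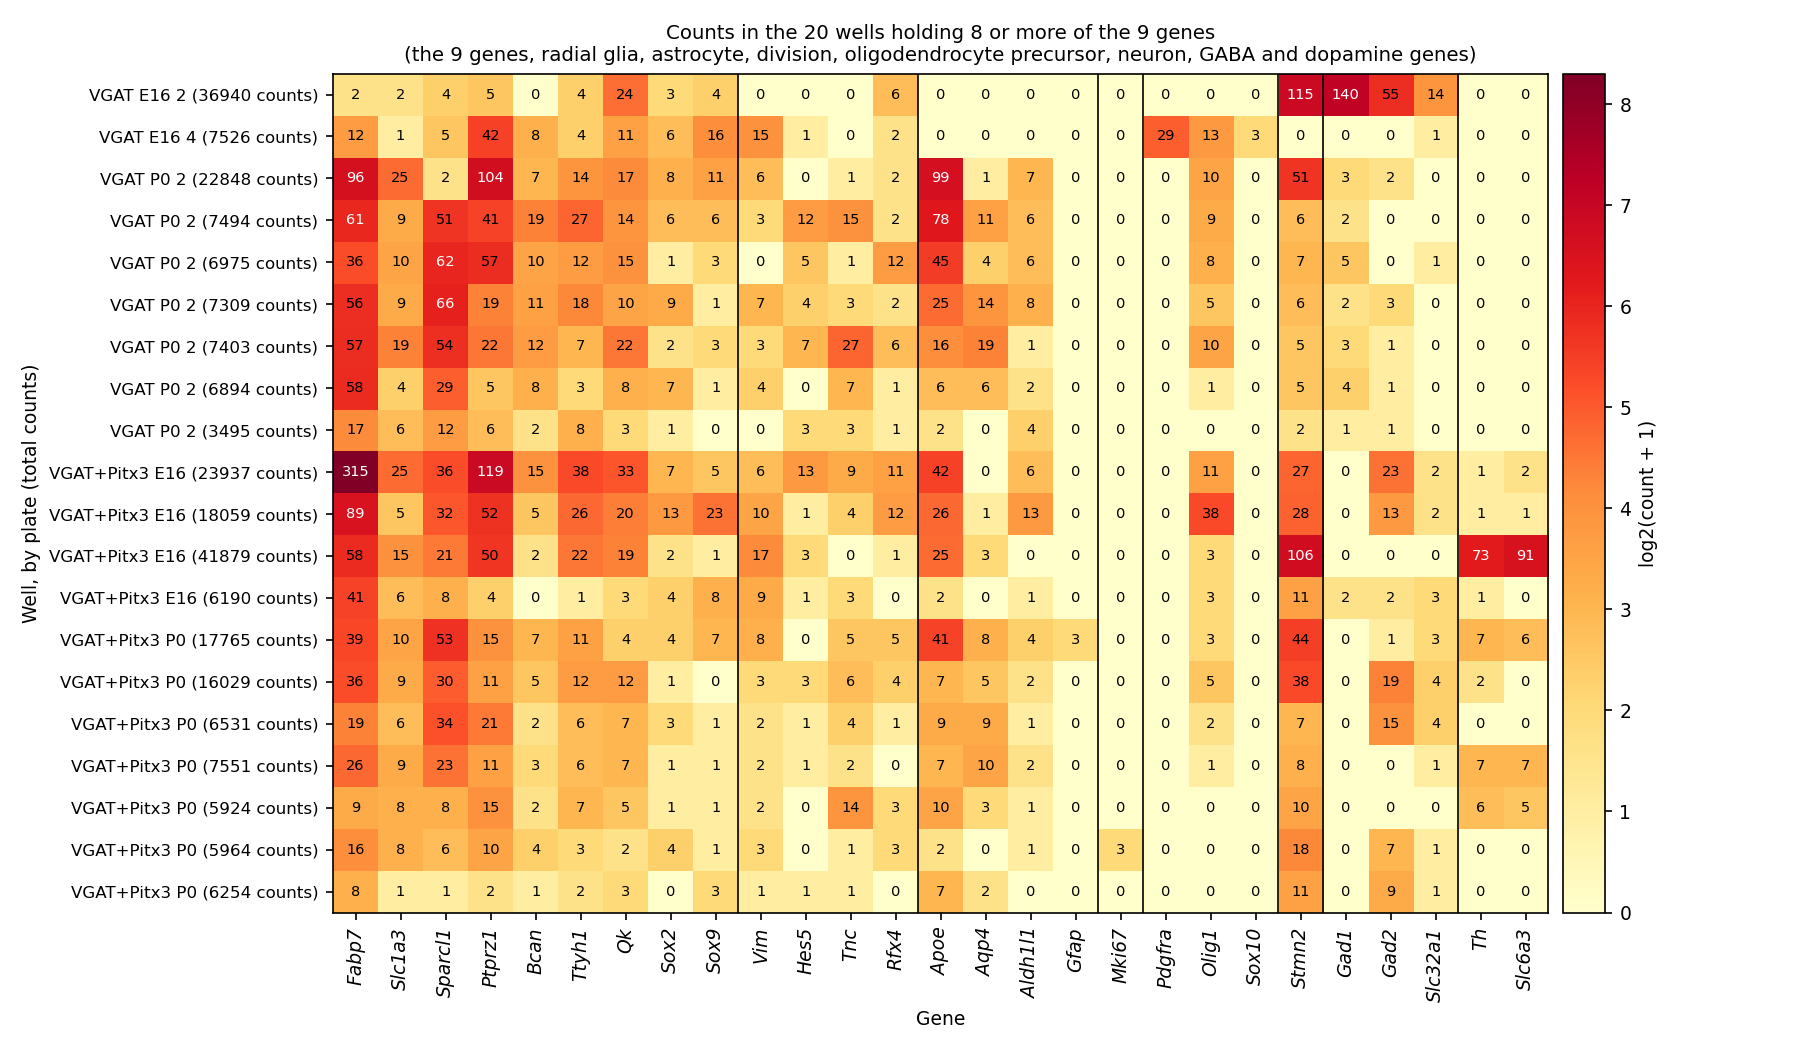
Counts of 27 genes (columns: the 9 genes, then markers of other radial glia, astrocytes, division, oligodendrocyte precursors and GABA and dopamine neurons) in each of the 20 wells with 8 or more of the 9 genes (rows, by plate); colour is log2 of the count plus 1. Pdgfra and Sox10 are counted only in the well of VGAT E16 plate 4, Olig1 in 15 wells, the VGAT P0 plate 2 wells carry Apoe, and the columns of Mki67 and Gfap are nearly empty.

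Correlations between the 9 genes across cells were lower once these wells were left out. Counts of the same 9 genes chose the wells, so this fall was built in and is no result about the genes. The mean over the 9 plates of the within-plate Pearson correlation was over 0.1 for 28 of the 36 gene pairs, and for 2 pairs (Fabp7 with Sox9, 0.12, and Sparcl1 with Sox9, 0.11) once the 20 wells were left out. The median over pairs went from 0.15 to 0.01, and the pair Fabp7 and Slc1a3 from 0.34 to 0.10. Over 14760 genes in 2034 cells, those most like the summed 9 genes were Olig1 (mean r 0.26), Sox2ot (0.24), Tnc (0.20), Ednrb (0.20), Timp3 (0.19), Slc4a4 (0.19), Mt1 (0.19), Acot1 (0.19), Aldh1l1 (0.18) and Hopx (0.18). Without the 20 wells, Sox2ot had 0.23, Olig1 0.10 over the 7 plates where it could be computed, and the other 8 between 0.01 and 0.08. Cells of a plate share library and depth, and Sox2ot shares sequence with Sox2, so these values are descriptions.

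Outside the 20 wells levels were set side by side in cells with and without a count of a regional transcription factor or marker, over the plates with at least 5 such cells. Of 72 pairs of a marker and a gene on the VGAT plates, 3 were higher on every plate and 4 on none, and of 27 on the VGAT+Pitx3 plates 7 were higher on both and 11 on neither. With so few VGAT+Pitx3 plates, many pairs can be higher on both or on neither without any difference between the cells. The same tally over other genes was not made. The pairs below, for either sort, were picked after their values were seen, and have no test. Sparcl1 was lower in VGAT cells with Sox14, a factor of a GABAergic lineage, than in the other cells on 7 of 7 plates, with means of 35.8 against 83.5 CPM. It was higher in cells with Otx2, a midbrain patterning factor, on 6 of 7 plates (99.4 against 56.0 CPM), and with Pax7 on 4 of 4 (119.8 against 62.9 CPM). Sox9 was higher in cells with Pax7 on 4 of 4 plates (30.4 against 10.7 CPM) and lower in cells with Lamp5 on 7 of 7 (6.45 against 11.6 CPM). Ptprz1 was higher in cells with Dlx1, a forebrain interneuron factor, on 5 of 5 plates (252 against 143 CPM). Sox2 was lower in cells with Nkx2-2 on 6 of 7 plates (46.95 against 68.5 CPM) and with Pax5 on 5 of 7 (40.0 against 67.2 CPM), and Bcan was higher in cells with Pax5 on 6 of 7 (6.60 against 3.02 CPM).

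On the VGAT+Pitx3 plates, cells with Slc6a3, the dopamine transporter, had more Qk than the others on both plates (78.3 against 22.3 CPM) and more Ptprz1 (331 against 234 CPM). Cells with Ebf2 had less Qk on both (39.4 against 93.2 CPM), and cells with Otx2 less Ptprz1 (172 against 309 CPM).

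**Figure D5:**
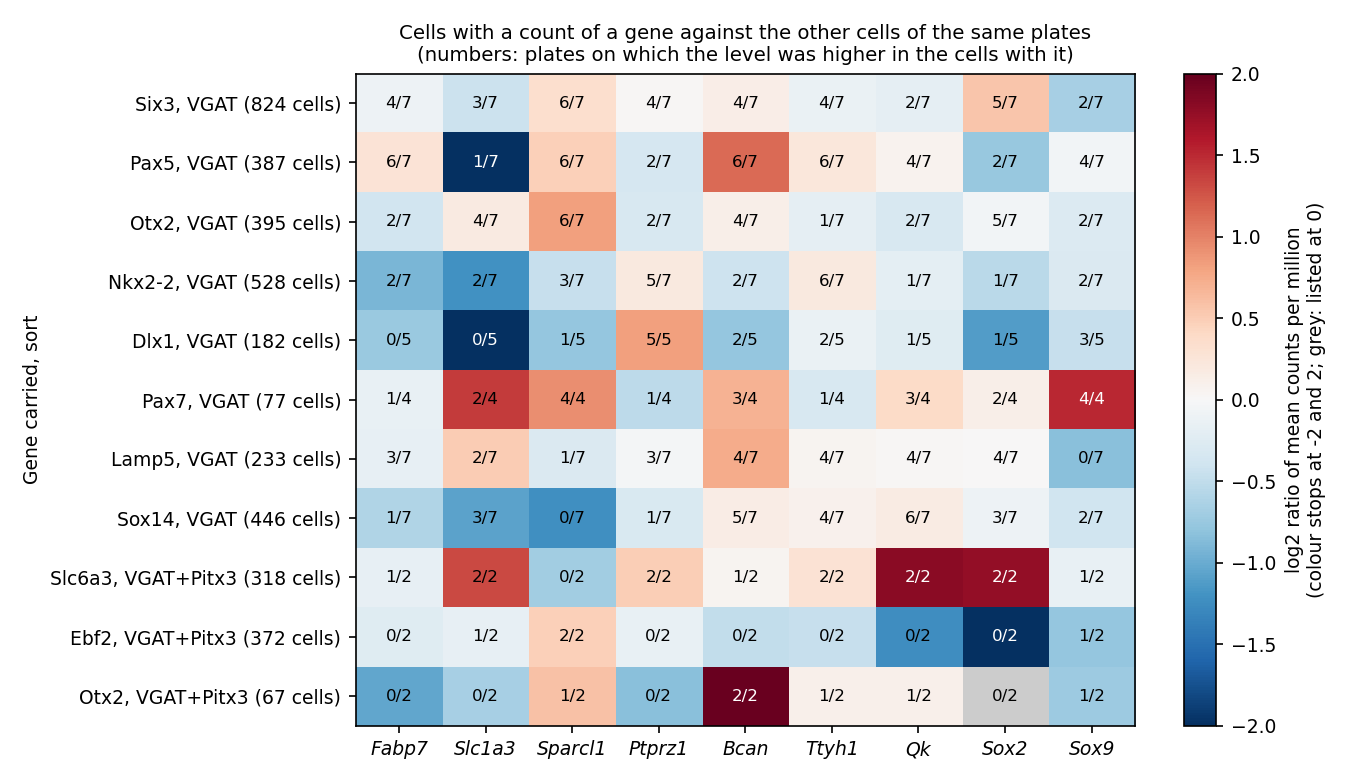
Log2 ratio of the mean CPM of each gene in cells with a count of a marker (rows) to that in the other cells of the same plates, by sort, with the 20 wells left out; printed numbers give the plates on which the ratio was above 1, of those with at least 5 such cells. Sparcl1 is low with Sox14 and high with Otx2, and Qk is high with Slc6a3.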

How the data were processed

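Cells were sorted into 384-well plates and profiled by SORT-seq, a plate form of CEL-seq2. Per the submitters' processing notes, reads were aligned with STAR to mm10. The authors deposited tables of spliced, unspliced and total transcripts in expected counts. Of the non-zero values, 51.7% are not whole, and 100.0% match a whole number of barcodes corrected for collisions among 6-base molecular barcodes (tolerance 0.001). That length is read from the values and differs from the one in the study's methods. The tables are in 1 row per gene and 1 column per well.

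The total counts of kept wells, without mitochondrial and ERCC spike-in entries (34 and 92 of 32787), were summed per plate and rounded. Low genes were dropped by filterByExpr and sums scaled by TMM. The quasi-likelihood test of edgeR 4.0.16 (R 4.3.3) gave p-values, adjusted over all genes tested by Benjamini and Hochberg (threshold 0.05). DESeq2 1.42.0, no filter, spliced counts, thinning to 4000 or 8000 counts, 3000 genes per well, wells or plates left out and the replicate block were alternatives. Tables used Python 3.11.15 with pandas 2.3.3, numpy 2.4.6 and scipy 1.17.1, and plots matplotlib 3.10.9. TMM factors lay between 0.96 and 1.04. The fits were tested on simulated data with 1 fixed spread for all genes, not estimated from these plates. Of 100 genes changed 2-fold and 100 changed 4-fold, 53% and 100% were recovered between stages. Between sorts 52% and 98% were recovered, and 0% and 22% for the interaction.

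Named genes are all 9 members and, from each list, those that passed (at most the 4 with the largest changes), apart from 1 that is not reported here. Dopamine genes are given as a count. Beside them stand the 10 genes with the largest ratio in cells with 3 or more members (at least 50 counts on at least 5 plates and a ratio above 1 on every plate), and the 10 whose counts scaled to 10000 correlate best with the members (in at least 2% of cells). Examples among the regional markers and the 20 wells were chosen after their values were seen. The members and lists were chosen with earlier results of these data known. No clustering was done.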

Additional observations from a re-analysis of the deposited data

Results flagged for a closer look

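Wells under the minimum of 2000 genes were left out of all comparisons, and 3 of them held counts of 5 or more of the 9 genes. On the VGAT+Pitx3 E16 plate there was 1 such well, with 856 genes, 6 of the 9 genes and 10 counts of Fabp7. On VGAT P0 plate 2 there were 2, one with 960 genes, 8 of the 9 genes and 5 counts of Fabp7, and one with 1833 genes, 5 of the 9 genes and none of Fabp7. These are signals in wells that no comparison used. Dixon's test at 95% was run on the 4 VGAT E16 plates alone, and no plate stood apart in 19 sets of values.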

How the results depend on the processing

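Of the changes of single genes under alternatives, 88 values kept direction and side of the threshold between stages, 25 lost the call, 6 gained one and 7 turned sign. Between sorts these were 138, 6, 11 and 7. The tallies include fits without wells chosen by counts of the same genes, which are no test. They also take a gene given no p-value as not called. Between stages, 6 of the 9 genes passed with no filter on low counts (5.21% of all genes). Thinned to 4000 counts, 1 of the 6 that could be tested passed (3.72%). With the second plate label 0 passed (0.00733%), and with 1 plate left out 0 to 6 (0.529% to 6.24%). Without the 20 wells 1 was past the threshold, which is no test, as counts of the same genes chose the wells. All genes called numbered 624, and 956 by DESeq2, 1592 with no filter, 363 thinned, 1 with the second label, and 76 to 833 with 1 plate left out. Between sorts, 5 of the 9 passed with no filter (5.22% of all genes) and 1 to 7 with 1 plate left out, when all calls numbered 625 to 1396 (1306 with every plate). For the interaction, no filter gave 2 of the 9 and 66 genes in all, and DESeq2 4 genes. Leaving out a VGAT+Pitx3 plate leaves no interaction to estimate.

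Between stages the sign turned for Ptprz1 (-0.18 without the 3 wells per plate richest in the genes, -0.24 without the 20 wells, -0.30 to 0.42 with 1 plate left out), Qk (0.45 with the second label) and Sox2 (-0.28 thinned, -0.25 with the second label, -0.0505 to 0.43 with 1 plate left out). Between sorts it turned for Bcan (-0.44 thinned), Fabp7 (-0.0225 to 4.57 with 1 plate left out) and Sox9 (-0.23 thinned, -0.50 without the 3 richest wells, -1.05 without the 20 wells, -0.71 to 0.68 with 1 plate left out). The cause was not tested.

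The share of cells with 3 or more genes was, for VGAT E16, VGAT+Pitx3 E16, VGAT P0 and VGAT+Pitx3 P0, 8.45%, 4.35%, 12.5% and 10.8% at 4000 counts. At 8000 counts it was 23.7%, 15.3%, 35.02% and 21.3%. Without Qk it was 27.5%, 15.8%, 45.5% and 15.1%. With 5 or more genes it was 6.43%, 1.64%, 13.0% and 4.80%, and with spliced counts 43.1%, 24.3%, 49.9% and 18.8%.

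With the replicate block, 226 genes passed between stages (1.47%), with Slc1a3 and Bcan among them and Fabp7 and Sparcl1 not (adjusted p = 0.0547 and 0.0697). Between sorts 914 passed (5.81%), with Fabp7, Slc1a3, Ptprz1 and Sox2 among them and Qk not (adjusted p = 0.143), and for the interaction none. The replicate numbers do not pair the plates: same-numbered VGAT plates correlated at 0.0285, 0.0688 and 0.0398 in their deviations, and not every plate correlated best with its own number. Of the kept wells, 487 held under 8000 counts.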

Other observations

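The tables of unspliced and spliced transcripts split the 9 genes further. Unspliced counts made up 52.0% of all counts of Qk, 29.0% of Ptprz1 and 25.9% of Slc1a3, and at most 3.33% of the other 6. For Slc1a3 the share was 11.8% in the 20 wells with 8 or more of the genes and 56.3% in the other wells (49 unspliced and 38 spliced counts). Qk had 29.3% against 53.5%, and Ptprz1 13.4% against 30.6%. These shares were looked at after the other results were seen, were not tested, and the wells were chosen by the same genes.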
